A study of Pleuronichthys verticalis with 38 samples.

Results

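In liver of hornyhead turbot, a flatfish of the sea floor (Pleuronichthys verticalis), the signals of 25 array probes varied together over fish. The set was chosen by its measured values. A reference profile was the mean log2 level of the 6 probes HT_SCCWRP_29409, HT_SCCWRP_11690, HT_SCCWRP_10431, HT_SCCWRP_6481, HT_SCCWRP_8946 and HT_SCCWRP_11970, and members were the probes with a Pearson r of 0.8 or more with that profile over all 38 fish. A member also had to be well above background, by the scanner software's flag, on 5 or more arrays. The rule found 25 members, the 6 reference probes and 19 others, among 14757 non-control probes, of which 10502 met the detection condition. Since the correlations selected the members, every correlation with the profile or among members is a description and was not tested.

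Each fish gave 1 liver sample and 1 array. After low PBDE, 7 fish had been injected once, into the body cavity, with 0.5 µg per g body weight of a PBDE mixture (BDE47, BDE99 and BDE100) in peanut oil, and after high PBDE 6 fish had received 5 µg per g. Low PCB (5 fish) and high PCB (7 fish) stood for 1 and 10 µg per g of a mixture of 13 PCB congeners in the same oil. The 6 oil controls were injected with the peanut oil only, and the 7 seawater controls had no injection. Among the latter, the labels of Seawater Control 7 disagree, since its description calls it a vehicle control. Every injected fish received 2 ml of oil per kg. The sampling time was 96 h for all fish, the seawater controls included. The fish were 10 females, 26 males and 2 immature animals, whose age and origin the labels used here do not state. Sex was unevenly spread over groups, with 4 females among the 5 low PCB fish and none (0 of 6) after high PBDE.

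The liver holds hepatocytes, which make plasma proteins and carry out detoxification, together with bile duct, blood vessel and immune cells. PBDEs and PCBs are persistent halogenated compounds that collect in fat and liver, and planar PCBs bind the aryl hydrocarbon receptor, which switches on detoxification genes. Transcripts that rise and fall together over individuals are commonly described as a co-expression set. In RNA from a whole piece of tissue, fewer cells of a type and less RNA per cell cannot be told apart. The files pair each probe with a contig number and with no gene name, so members are given by probe identifier. Neither their function nor the labelled tissue was checked with marker genes. Whether different contigs belong to the same transcript was not checked either.

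Levels below are log2 signals minus the log2 of the array's 75th percentile, so that 0 is a signal equal to that percentile. The 75th percentile lay between 43.6 and 194 intensity units, and 6113 to 10355 probes per array were well above background. The lowest of both belonged to High PCB 32, the 1 array on its slide. The profile had r = -0.22 (Spearman's rho -0.20) with the 75th percentile and r = -0.22 (rho -0.14) with the number of probes well above background over 38 fish, measures that share the array's signal with the profile. Precision throughout is limited by how many arrays there were.

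The 6 reference probes had r with the profile between 0.976 (HT_SCCWRP_11690) and 0.995 (HT_SCCWRP_6481). Each of them is part of that profile, and with the mean of the other reference probes their r was 0.965 to 0.993. Among the 19 other members, the highest r belonged to HT_SCCWRP_7244 (0.988), HT_SCCWRP_9059 (0.987) and HT_SCCWRP_1820 (0.986). The lowest belonged to HT_SCCWRP_41629 (0.868), HT_SCCWRP_10984 (0.867) and HT_SCCWRP_6423 (0.853), which stood just inside the threshold. Just outside it were HT_SCCWRP_9726 (0.784), HT_SCCWRP_20382 (0.775) and HT_SCCWRP_31688 (0.773). Of the members, 22 had r of 0.9 or more and 3 lay between 0.8 and 0.9, while 12 probes lay between 0.6 and 0.8. The most negative r belonged to HT_SCCWRP_61822 (-0.618), HT_SCCWRP_24181 (-0.553) and HT_SCCWRP_3978 (-0.553), so that no probe mirrored the profile with a negative r as large as those of the members.

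Members were also like each other. Over their 300 pairs the median r was 0.928 (0.758 to 0.994), and 296 pairs had r of 0.8 or more. A single component held 94.0% of the variance of the 25 members over the 38 fish, and the second held 1.62%. Once the profile had been removed from each member by regression, the median r between pairs was 0.10 (-0.58 to 0.69). The reference probes make up the profile, so what is left of them cancels out in every fish. This lowers the r between those probes by construction. The correlation was also present inside each group. Within groups of 5 to 7 fish the median r of the members with the profile was 0.97 to 0.99, and 23 to 25 members had r of 0.8 or more. The lowest value within a group was 0.670 (HT_SCCWRP_6423 in oil controls). In females and in males taken alone, all 25 members had r of 0.8 or more. The same fish had selected the members, and these values include the reference probes themselves. A high r within groups and sexes was therefore partly built in.

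**Figure D1:**
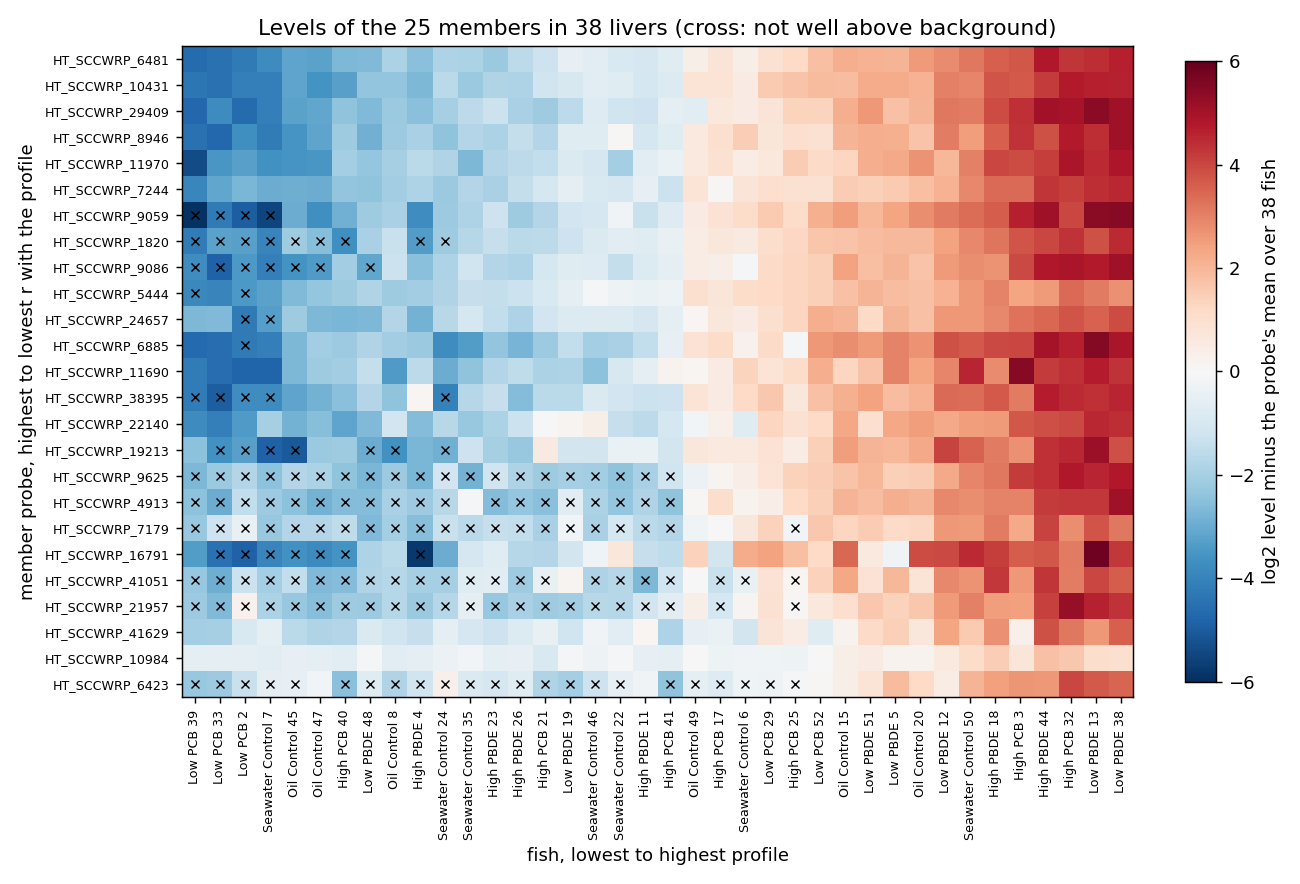
Heat map of the log2 level of each of the 25 members (rows, highest to lowest r) in each of 38 fish (columns, lowest to highest profile), as the difference from the probe's own mean over all fish, blue below and red above it. Crosses mark arrays on which the probe was not well above background. The colour changes along the fish in nearly all rows, most weakly for HT_SCCWRP_10984, whose SD was 0.69, and the crosses lie mostly at the low end of the profile.

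The profile covered a wide range. It was lowest in Low PCB 39 (0.04), had a median of 3.94 and was highest in Low PBDE 38 (9.43), a span of 9.39 log2 units or 670-fold, and all 6 probes behind it were well above background in all 38 fish. The largest gap between neighbouring fish was 0.88, between Seawater Control 7 (0.56) and Oil Control 45 (1.44), over all 38 fish pooled. Gaps inside a group could be wider, such as that between Low PCB 2 (0.53) and Low PCB 29 (5.56). No separate classes of fish were defined, and whether the fish form classes was not tested. At the low end stood Low PCB 39 (0.04), Low PCB 33 (0.40), Low PCB 2 (0.53) and Seawater Control 7 (0.56). At the high end stood Low PBDE 38 (9.43), Low PBDE 13 (9.34), High PCB 32 (9.33), High PBDE 44 (9.02) and High PCB 3 (8.90). Both ends therefore held fish of more than 1 group. At the low end this rests on Seawater Control 7, a seawater control by title and source but a vehicle control by its description. The 25 members together made up 0.00993% of the summed non-control signal in Low PCB 39 and 3.78% in Low PBDE 13, with a median of 0.112% over fish.

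Members were among the most variable probes on the array. Their SD over the 38 fish had a median of 2.55 log2 units, against 0.58 over all 10502 detected probes. The widest member was HT_SCCWRP_9059 (SD 3.18) and the narrowest was HT_SCCWRP_10984 (SD 0.69), near the median of all probes. Of the 50 most variable probes 16 were members, and of the 100 most variable 22 were. The 78 others of those 100 had r between -0.38 and 0.61 with the profile (median -0.03), and the most variable probe of all (SD 3.76) had r = 0.15. A wide spread between fish was therefore not confined to the members. The wide spread of the members was partly built in, since the reference probes that set the profile ranked 20 to 32 by SD among detected probes. For 15 members the SD also includes fish in which the probe was not well above background. Repeated spots of the same probe on 1 array had a median SD of 0.068, with outlier spots left out. This was over 16 probes with 10 spots each, all well above background on every array. The spot averages of the same probes had a median SD of 0.35 between fish. The SD between spots holds no differences between arrays, whereas the SD between fish holds them too. Every member had 1 spot, so the error between spots was not measured for the members themselves.

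**Figure D2:**
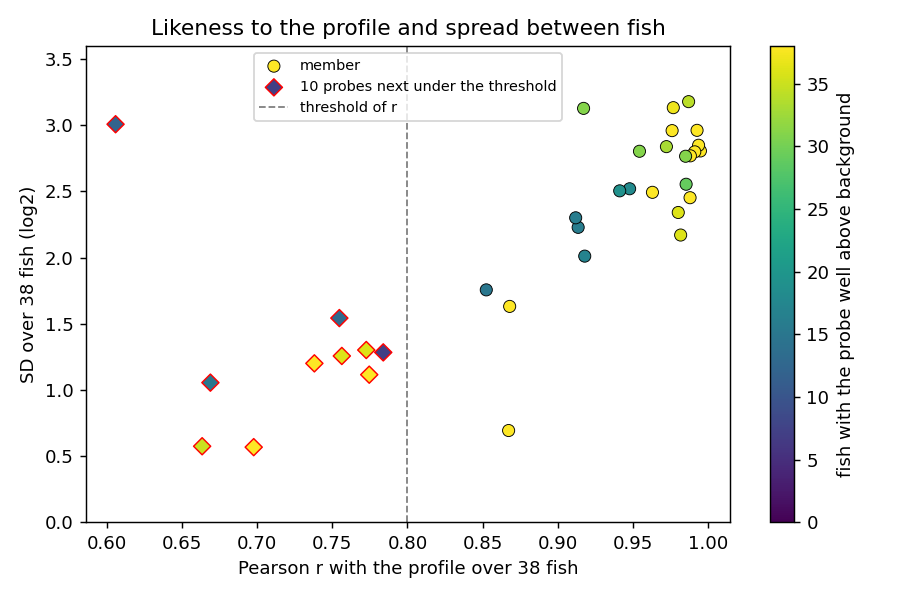
Pearson r with the profile over 38 fish (x axis) against the SD over fish in log2 units (y axis) for the 25 members (circles) and the 10 probes next under the threshold (diamonds, red edge), coloured by the number of fish in which the probe was well above background. The dashed line is the threshold of 0.8. Most members lie at r above 0.9 with an SD above 2, while HT_SCCWRP_10984 has r = 0.867 with an SD of 0.69.

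The ratios of the reference probes to each other varied less between fish than the probes themselves. The difference between HT_SCCWRP_10431 and HT_SCCWRP_6481 had an SD of 0.32 over the 38 fish, whereas each of them alone had an SD of 2.85 and 2.81. The loosest pair was HT_SCCWRP_11690 and HT_SCCWRP_11970, with an SD of the difference of 0.88. All pairs with HT_SCCWRP_11690 had an SD of the difference of 0.82 to 0.88. Against the profile, the reference probes had slopes between 0.97 (HT_SCCWRP_11970) and 1.04 (HT_SCCWRP_29409), where 1 is the same fold change. Since the profile is the mean of these probes, their slopes average 1 by definition, and only the spread of the slopes is informative. Among the other members slopes ran between 0.21 (HT_SCCWRP_10984) and 1.11 (HT_SCCWRP_9059), and HT_SCCWRP_41629 had 0.50. For dimmer members these slopes include fish at background. Over only the fish with the member well above background, the slope of HT_SCCWRP_9059 was 1.07. That of HT_SCCWRP_9625 was 1.09 (0.84 over all fish) and that of HT_SCCWRP_16791 was 0.91 (1.01 over all fish). Both HT_SCCWRP_10984 and HT_SCCWRP_41629 were well above background in all 38 fish, so their smaller slopes were measured above the background limit. On linear signals, a straight line against the reference probes had an intercept of 2.60 for HT_SCCWRP_10984, whose median linear signal was 2.87. For HT_SCCWRP_41629 the intercept was 0.36 and the median 0.66. Whether a constant signal under the varying part made these log2 slopes smaller was not tested.

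Dimmer members fell short of the background flag mostly in fish with a lower profile. For most of these members, fish with and without the flag overlapped in profile. The members were chosen by r with the profile, so a link of this kind was partly built in. There were 10 members well above background in all fish and 15 that were not. Between 10 members (Low PCB 2) and all 25 (13 fish) were well above background in a fish. HT_SCCWRP_9625 was well above background in 18 fish, all with a profile of 4.96 or more, and not in the 20 fish with a profile of 4.16 or less. HT_SCCWRP_9059 was not well above background in the 4 fish with the lowest profile, at 0.56 or less. HT_SCCWRP_6423 was well above background in the fewest fish, 15, with profiles as low as 1.55. It was not well above background in fish with profiles of up to 5.97. HT_SCCWRP_16791 was well above background in the fish with the lowest profile (0.04), but not in fish with profiles of up to 2.52. For these members the lowest levels lie at the background limit and have no order, so their spans are not given as folds. The 25 spots lay between rows 17 and 186 of 192 and columns 11 and 81 of 82. The distance between pairs of them had a median of 62.5 spots and was 2 spots at the smallest. A link between level and position on the array was not tested.

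The next question was how the profile stood in the 6 groups. After low PBDE the lowest, median and highest profile were 2.28, 6.89 and 9.43, and the mean was 6.55 ± 2.72 (SD, n = 7). After high PBDE they were 2.52, 3.37 and 9.02, with a mean of 4.90 ± 2.94 (SD, n = 6). Both PBDE groups reached above 9, and the median was lower at the high dose. The 5 low PCB fish had 0.53 (Low PCB 2), 5.56 (Low PCB 29), 0.40 (Low PCB 33), 0.04 (Low PCB 39) and 6.21 (Low PCB 52), with a mean of 2.55 ± 3.06 (SD). The values of Low PCB 39, Low PCB 33 and Low PCB 2 were the lowest of all 38 fish, and the other pair lay above the median of all fish. After high PCB the values were 2.21, 5.42 and 9.33, with a mean of 5.58 ± 2.74 (SD, n = 7). Oil controls had 1.44, 3.64 and 6.90, with a mean of 3.94 ± 2.48 (SD, n = 6), and seawater controls 0.56, 3.61 and 7.87, with a mean of 3.75 ± 2.34 (SD, n = 7). In order of the mean the groups were low PBDE, high PCB, high PBDE, oil control, seawater control and low PCB. All ranges overlapped, and neighbouring means in that order differed by less than the smallest group SD of 2.34.

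**Figure D3:**
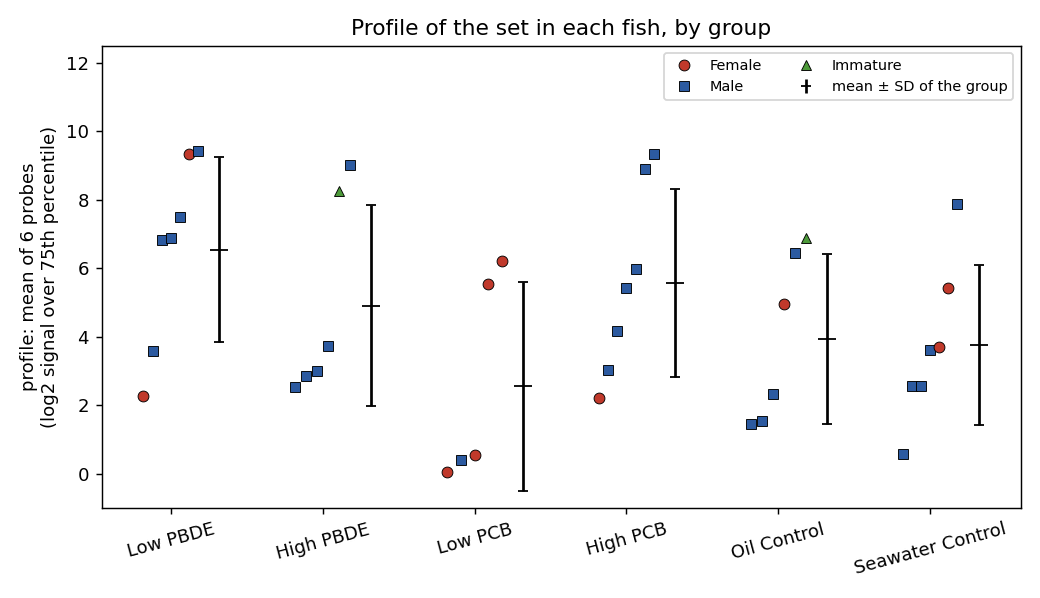
Profile (mean log2 level of the 6 reference probes, y axis) of each fish in the 6 groups (x axis), with symbols for sex. Bars give the mean ± SD of each group. Every group spans at least 5.46 log2 units, and the 6 ranges overlap.

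Single members showed the same overlap. HT_SCCWRP_6481, the probe with the highest r, had a lowest, median and highest level of 2.54, 7.28 and 9.84 after low PBDE and of 2.65, 3.89 and 9.98 after high PBDE. Its levels in the 5 low PCB fish ran between 0.55 (Low PCB 39) and 7.01 (Low PCB 52), and after high PCB they were 2.50, 5.93 and 9.47. They were 1.95, 4.41 and 7.72 in oil controls and 1.41, 4.25 and 8.33 in seawater controls. The ranges of this probe overlapped between all 6 groups.

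HT_SCCWRP_41629, a member with a shallower slope, had a lowest, median and highest level of -1.27, 1.39 and 3.55 after low PBDE and of -1.42, -0.40 and 3.76 after high PBDE. After low PCB its levels ran between -2.07 and 0.74 (n = 5), and after high PCB they were -1.90, -0.43 and 3.12. It had -1.86, -0.90 and 0.63 in oil controls and -1.14, -0.66 and 1.53 in seawater controls. Its highest levels were in PBDE and high PCB fish, and its lowest levels were close together in all groups. HT_SCCWRP_10984 moved least, with 1.62, 2.25 and 2.80 after low PBDE, 1.18, 1.27 and 3.51 after high PBDE and 0.86, 1.44 and 3.36 after high PCB. Its levels ran between 1.15 and 1.79 after low PCB (n = 5), and they were 1.13, 1.51 and 2.09 in oil controls and 1.12, 1.55 and 2.85 in seawater controls. The dim member HT_SCCWRP_41051 had a signal well above background in 6 of 7 low PBDE, 2 of 6 high PBDE, 2 of 5 low PCB and 2 of 7 high PCB fish, and in 3 of 6 oil and 1 of 7 seawater controls.

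Exposed fish were compared with oil controls to ask what each dose changed beyond the injected oil, with limma fitted to all 10492 probes tested and with sex in the model. No member passed at an adjusted p under 0.05 in any of these 4 comparisons, which share the same 6 oil controls. Over all probes the share that passed was 0.00953% for high PCB and 0% for low PCB, high PBDE and low PBDE. At an unadjusted p under 0.05 stood 17 of 25 members after low PBDE, all higher, where the share over all probes was 4.4% (2.33% higher). After high PCB, low PCB and high PBDE 0 members stood at an unadjusted p under 0.05, where the shares over all probes were 7.41%, 7.51% and 4.81%. Since the members follow 1 profile, their tests are not independent of each other. The sex term had the levels female, male and immature. Its immature level rested on only Oil Control 20 (profile 6.90) and High PBDE 18 (8.27). With this term, fitted differences depart from the differences of group means. HT_SCCWRP_6481 averaged 7.03 after low PBDE and 4.65 in oil controls, whereas its fitted log2 difference was 3.04. Below, member counts are also given for refits with a fish left out or another setting. For those refits the shares over all probes at an unadjusted p were not worked out.

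After low PBDE all 25 members had positive log2 differences against oil controls, with a median of 2.75 (0.80 to 3.47), while the median over all probes was -0.01. HT_SCCWRP_41629 had the smallest p. Its mean level was 1.24 ± 1.79 (SD, n = 7) after low PBDE and -0.76 ± 1.01 (SD, n = 6) in oil controls, which the fit put at a log2 difference of 2.40 (SE 0.81, 95% interval 0.75 to 4.04) with a limma adjusted p of 0.998. HT_SCCWRP_10431 averaged 8.04 ± 2.67 (SD, n = 7) after low PBDE and 5.39 ± 2.59 (SD, n = 6) in oil controls, and its log2 difference in the fit was 3.28 (SE 1.45, adjusted p by limma 0.998). The unadjusted count of 17 reached at most 24 with 1 fish left out (Oil Control 15) and 23 under the other settings. It fell by over 1.5 times without some single fish. It was 1 without Low PBDE 13 or Low PBDE 38, 2 without Oil Control 45 or Oil Control 47, 4 without Oil Control 8, 5 without Low PBDE 12 and 11 without Low PBDE 5, and it was 1 with no sex term.

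After high PBDE 24 of 25 members had positive log2 differences against oil controls, with a median of 0.57 (-0.07 to 1.18) against -0.05 over all probes. HT_SCCWRP_41629 again had the smallest p, with 0.49 ± 2.20 (SD, n = 6) after high PBDE and -0.76 ± 1.01 (SD, n = 6) in oil controls (log2 difference 1.18, SE 0.82, limma adjusted p = 0.987). The 1 negative difference was that of HT_SCCWRP_16791 (-0.07, SE 1.66, limma adjusted p = 1.00). Without High PBDE 44 the median of the members was -0.35, so 1 fish set its sign.

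After high PCB all 25 members had positive log2 differences against oil controls, with a median of 1.60 (0.31 to 2.49) against -0.04 over all probes. HT_SCCWRP_11970, with the smallest p, averaged 6.34 ± 2.62 (SD, n = 7) after high PCB and 4.55 ± 2.63 (SD, n = 6) in oil controls (log2 difference 2.49, SE 1.35, 95% interval -0.25 to 5.23, limma adjusted p = 0.697). The median was 1.01 without High PCB 32, a move of over 1.5 times. The count at an unadjusted p under 0.05 was 5 without High PCB 40 and 4 without Oil Control 15. It was 1 without Oil Control 49 or High PCB 21. Shares over all probes were not worked out for these refits. After low PCB 6 members had positive and 19 negative log2 differences against oil controls, with a median of -0.58 (-1.51 to 0.87) against 0.01 over all probes. HT_SCCWRP_16791 averaged -2.20 ± 3.38 (SD, n = 5) in low PCB fish, against -0.44 ± 3.44 (SD, n = 6) in oil controls (log2 difference -1.51, SE 1.93, limma adjusted p = 0.939). HT_SCCWRP_7179 had the smallest p among positive differences (0.87, SE 1.26, limma adjusted p = 0.949). The median of the members was 0.16 without Low PCB 33, the group's 1 male, and its sign turned in 3 of 38 fits that left out 1 fish.

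**Figure D4:**
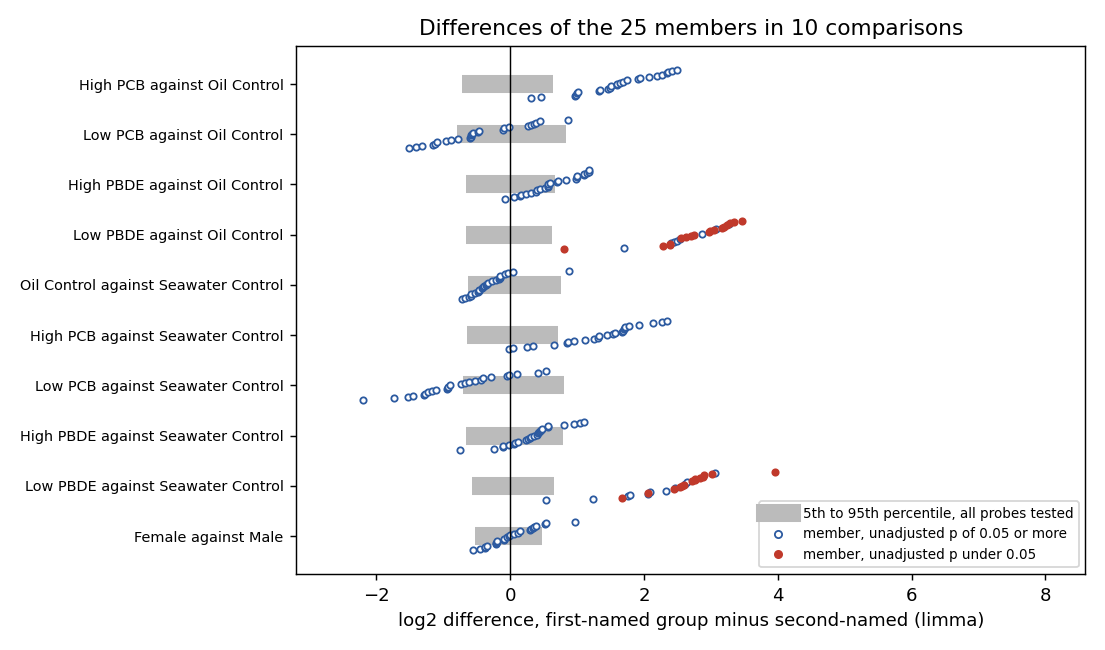
Log2 differences of the 25 members (points) in each of 10 comparisons (rows), first-named group minus second-named, from limma with group and sex in the model. Grey bars give the 5th to 95th percentile over all 10492 probes tested, and filled red points have an unadjusted p under 0.05. All points of both low PBDE comparisons lie right of 0, and no point in any row passed the adjusted threshold.

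Oil controls were set against seawater controls, a comparison in which the injection and the injected oil cannot be told apart. No member passed with limma, and 0 stood at an unadjusted p under 0.05, where the shares over all probes were 0% and 7.23%. The members had a median log2 difference of -0.36 (-0.72 to 0.88) against 0.01 over all probes, negative in 23 and positive in 2. HT_SCCWRP_41629 averaged -0.76 ± 1.01 in the 6 oil controls and -0.43 ± 0.91 in the 7 seawater controls (SD), and its log2 difference in the fit was -0.72 (SE 0.81, limma adjusted p = 0.881). HT_SCCWRP_6885 had the smallest p among positive differences (0.88, SE 1.57, limma adjusted p = 0.943). The sign of the median was not stable, at 0.22 without Seawater Control 50 and 0.22 with no sex term. HT_SCCWRP_6481 averaged 4.65 in oil controls and 4.39 in seawater controls, whereas its log2 difference in the fit with sex was -0.40.

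Against the uninjected seawater controls, where exposure and injection combine, no member passed with limma in any of 4 comparisons, which share the same 7 seawater controls. Over all probes the share that passed was 0.0477% for low PBDE, 0% for high PBDE, 0.0858% for low PCB and 0.0762% for high PCB. At an unadjusted p under 0.05 stood 14 of 25 members after low PBDE, all higher, where the share over all probes was 6.8% (4.15% higher). For high PBDE, low PCB and high PCB 0 members stood there, where the shares over all probes were 8.18%, 8.32% and 9.05%.

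The median log2 difference of the members against seawater controls was 2.57 after low PBDE (0.54 to 3.96, positive in 25), 0.35 after high PBDE (-0.75 to 1.11, positive in 20), -0.90 after low PCB (-2.19 to 0.54, positive in 3) and 1.45 after high PCB (-0.01 to 2.34, positive in 24). HT_SCCWRP_6885 averaged 3.97 ± 2.91 (SD, n = 7) after low PBDE and 0.01 ± 2.75 (SD, n = 7) in seawater controls, and its log2 difference in the fit was 3.96 (SE 1.47, 95% interval 0.98 to 6.94), with a limma adjusted p of 0.500. Its lowest, median and highest levels were -0.19, 4.59 and 7.09 after low PBDE and -2.48, -0.44 and 5.28 in seawater controls, which overlapped. HT_SCCWRP_38395 had the smallest p after high PBDE (log2 difference 1.11, SE 1.49, limma adjusted p = 0.876), HT_SCCWRP_16791 after low PCB (-2.19, SE 1.79, limma adjusted p = 0.831) and HT_SCCWRP_11970 after high PCB (2.14, SE 1.27, limma adjusted p = 0.657).

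The unadjusted count of 14 after low PBDE moved by over 1.5 times without any 1 of 18 fish. It fell to 1 without Low PBDE 13 or Low PBDE 38, 2 without Seawater Control 7, 3 without Seawater Control 24, Seawater Control 35 or Low PBDE 12, 4 without Seawater Control 22 or Low PBDE 5 and 6 without Seawater Control 46 or Low PBDE 51. It was 9 without Oil Control 20, High PBDE 18, High PBDE 23, High PCB 17 or High PCB 25, which enter this comparison only through the shared spread and the sex term. It rose to 22 without Low PBDE 19 or Low PBDE 48 and 23 without Seawater Control 50. It was 7 with no sex term, 7 with slide as a fixed block and 3 with Seawater Control 7 moved to the oil controls. The median after high PBDE was -0.66 without High PBDE 44, and that after low PCB was -0.09 without Low PCB 33. The median after high PCB was 0.85 without High PCB 32 and 2.32 without High PCB 40. The count after high PCB at an unadjusted p under 0.05 was 2 without High PCB 40 and 3 without Seawater Control 50. Shares over all probes were not worked out for the refits of this paragraph.

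The precision of these differences was low for the members. Their median half-width of the 95% interval was 2.06 to 3.21 log2 units over the 10 comparisons, and their median SE was 1.01 to 1.58, whereas the median SE over all probes was 0.24 to 0.38. The fitted terms for group and sex together took up a median of 25.8% of a member's variance between fish (18.7% to 33.1%). The median over all probes was 18.9%. Most of the spread of every member therefore lay between fish of the same group and sex. These shares were not adjusted for the number of terms in the fit. Such terms take up part of the variance even with no effect of group or sex. The shares are therefore not the part explained by group and sex, and the excess of the members over all probes was not tested.

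Females were compared with males with group in the model. No member passed with limma, and 0 stood at an unadjusted p under 0.05, where the shares over all probes were 0% and 5.67%. The profile had a lowest, median and highest value of 0.04, 4.33 and 9.34 in females (mean 4.02 ± 2.84, SD, n = 10) and of 0.40, 3.67 and 9.43 in males (mean 4.67 ± 2.84, SD, n = 26). The 2 immature fish had 8.27 (High PBDE 18) and 6.90 (Oil Control 20), which lay inside the ranges of both sexes. The members' median log2 difference was -0.02 (-0.55 to 0.96) against -0.01 over all probes, positive in 11 and negative in 14, and its sign turned in 11 of 38 fits that left out 1 fish. HT_SCCWRP_16791 had the smallest p among positive differences (0.96, SE 1.24, limma adjusted p = 0.959) and HT_SCCWRP_41629 among negative ones (-0.38, SE 0.61, limma adjusted p = 0.970).

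The arrays lay on 8 slides scanned on 3 days. In a fit that also held group and sex, no member differed between slides in limma's F test at an adjusted p under 0.05, where 9.9% of all probes did, and none differed between scan days, where 7.8% did. At an unadjusted p under 0.05 stood 2 members for slide, where the share over all probes was 27.6%, and 4 for scan day, where it was 22.7%. The members' wider spread between fish (median SD 2.55, against 0.58 over detected probes) makes a batch difference of a given size harder to call. These counts therefore do not show that the members were less affected by batch. The profile averaged 3.77 ± 3.04 (SD, n = 10) on scan day 1, 4.72 ± 2.04 (SD, n = 21) on scan day 2 and 5.73 ± 4.34 (SD, n = 7) on scan day 3. On scan day 3 it reached both 0.53 and 9.43, so fish scanned together stood at both ends. The 7 arrays of that day included Low PBDE 38, High PCB 32, High PBDE 44 and High PCB 3 from the high end. From the low end they included Low PCB 2 and Seawater Control 7. Limma's F test compares the means of scan days, so the wider spread on scan day 3 was not tested. The r of 0.8 or more with the profile held for 25, 23 and 25 members within scan days 1, 2 and 3.

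Within batches, each member's group means were subtracted without a sex term, and the median over the 25 members was taken. Within scan days 1, 2 and 3 this median difference of low PBDE from oil controls was 4.80, -0.27 and 6.54, over 2, 4 and 1 low PBDE fish and 2, 3 and 1 oil controls. From seawater controls it was 3.05, 0.65 and 8.21, over the same low PBDE fish and 1, 5 and 1 seawater controls. The difference was thus smallest on scan day 2, which held the most arrays. Within slides the median difference of low PBDE from oil controls was positive on 4 of 6 slides (-4.24 to 7.17) and that from seawater controls on 4 of 6 (-0.90 to 8.21). After high PBDE, the median difference from oil controls was positive on 2 of 5 slides and in 1 of 3 scan days. After low PCB these counts were 1 of 5 and 1 of 3, and after high PCB 2 of 5 and 1 of 3. Scan day 3 held 1 high PBDE fish, 2 high PCB fish and 1 oil control. On scan days 1, 2 and 3 the median difference from oil controls was -0.54, -0.42 and 6.12 after high PBDE. After high PCB it was -1.28, -0.52 and 5.74, and after low PCB it was -2.60, 0.82 and -1.33. From seawater controls it was positive on 3 of 5 slides after high PBDE, 2 of 4 after low PCB and 4 of 5 after high PCB, and in 2 of 3 scan days for each. For oil against seawater controls it was positive on 3 of 5 slides and in 2 of 3 scan days, and for females against males on 3 of 6 slides and in 2 of 3 scan days. Most of these slide values rest on 1 fish of each group.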

How the data were processed

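Liver RNA of 38 fish was hybridised to custom 1-colour Agilent arrays. Per the file headers, the authors extracted spot intensity with Feature Extraction 11.5.1.1, and the deposited processed signal is a linear intensity with background already subtracted. The deposited series table holds the same intensity values within 0.497%. From these, log2 levels were computed here relative to the 75th percentile of non-control spots, and spots of a probe were averaged. The 25 members, the lists and the rule for named probes (reference probes, highest and lowest r, probes next to the threshold, smallest p in each direction) were chosen with earlier results of these data known. Gene and cell type lists were not applied, since the files give no gene names.

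All arrays were fitted with limma 3.58.1 (R 4.3.3) on group and sex, with an intensity trend, Benjamini-Hochberg adjustment over 10492 probes and a threshold of 0.05, two-sided. The fit leaves out 10 detected probes with outlier spots. The fit was tested on simulated data. Each sample is a separate fish. Seawater Control 7 is called a vehicle control in its description but a seawater control in its title and source, and was kept with the seawater controls. Slides and scan days come from the file headers. No column was left unmapped.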

Additional observations from a re-analysis of the deposited data

Results flagged for a closer look

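Of 174 sets of values asked (a measure in a group of 5 to 7 fish), 6 held a fish far from the rest of its group by Dixon's criterion, which flags about 1 in 20 sets by chance. Seawater Control 50 stood out in 5 of them. The 25 members made up 1.49% of its summed signal, and 0.271% in the nearest seawater control, Seawater Control 6. Its level of HT_SCCWRP_10984 was 2.85 (nearest Seawater Control 22, 1.64), that of HT_SCCWRP_41629 was 1.53 (nearest Seawater Control 46, -0.27), that of HT_SCCWRP_21957 was -0.75 (nearest Seawater Control 6, -3.59) and that of HT_SCCWRP_41051 was -0.86 (nearest Seawater Control 6, -3.99). These measures share the profile, so the 5 values are not separate. In High PCB 32, 6113 probes were well above background, against 8282 in the nearest fish of the group, High PCB 25. Its profile of 9.33 was the highest of the group, and the part of its dimmer array in that value was not tested.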

How the results depend on the processing

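The number of members was 10 when probes had to be well above background on all arrays, which the rule of detection alone brings about. It was 20 with normexp background correction, 22 at r of 0.9 or more, 31 at r of 0.7 or more, 26 with Spearman's rho, 26 on residuals after group and sex, 28 in male fish only and 25 with quantile normalization, the deposited table, no filter on dim probes or outlier spots left out. On linear signals, an alternative chosen after seeing the data, it was 28, of which 24 were members. All 25 members kept r of 0.8 or more without any 1 fish, where the count was 25 to 27. Members called between scan days were 1 with normexp background correction, where 61 of all probes were called. Over the fits that left out 1 fish they were 0 to 1. The 1 was without Seawater Control 7, where 768 of all probes were called, against 818 in the main fit. The cause was not tested. In no other fit was a member called. With normexp, 17 of all probes differed between slides, against 1039. Normexp gave smaller median differences, such as 0.88 for high PCB against oil controls and 0.60 against seawater controls. This setting also added an offset of 50 intensity units to each signal, which by itself shrinks log2 differences, most for dim probes. The parts of the offset and of the background correction in the normexp counts and differences were not told apart. The median difference of low PBDE from oil controls was 1.70 to 3.45 over all settings and left-out fish, and that from seawater controls 1.42 to 3.31. The sign of the members' median difference turned for females against males in 5 of 9 other settings and 11 of 38 fits that left out 1 fish. It turned for oil against seawater controls in 1 of 13 settings and 2 of 38 such fits, for high PBDE against seawater controls in 1 and 2, for high PBDE against oil controls in 0 and 1, and for low PCB against oil controls in 0 and 3. It did not turn in the other 5 comparisons under these settings and fits. With Seawater Control 7 moved to the oil controls, the median difference of high PBDE from seawater controls was -0.15. No paired analysis was possible because the fish carry unique numbers. The limits are the 5 to 7 fish a group, 1 spot per member and background levels for 15 members in some fish.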
